A study of Mus musculus with 7 samples.

Results

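Described here are 10 genes of the extracellular matrix and of activated fibroblasts in the apical heart muscle of 7 mice. They are Fn1, Postn, Tnc, Thbs1, Spp1, Fbn1, Eln, Mgp, Timp4 and Fap, taken by symbol from the 20343 genes of the count table, and all 10 were found there. The mice were NSG-DR1 (strain NSG-DRB1*0101), an immunodeficient strain with a human HLA-DR1 transgene that can accept human T cells and lacks lymphocytes of its own. The 4 control hearts came from untreated mice, and the 3 transferred hearts from mice that had received a transfer of human CD4+ T cells and were sampled 6 weeks later. The controls were left untreated, and no injected control group was analysed here. The age and sex of the mice are not given in the sources used here. The labels do not say in words whether the T cells came from separate people, and codes on the transferred animals that may bear on this were not used. Polyadenylated RNA of the whole tissue piece was sequenced, so in these bulk samples fewer cells of a type and less RNA per cell cannot be told apart.

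None of the 10 genes passed the test between transferred and control hearts (edgeR quasi-likelihood test, Benjamini-Hochberg adjusted over all 7667 tested genes, threshold 0.05), nor did any with DESeq2 or limma-voom. Of all tested genes, 0.235% passed the edgeR test, 10 higher and 8 lower in transferred hearts. DESeq2 called 250 of the 7667 genes, 190 higher and 60 lower. With limma-voom 0 of all tested genes passed, so its lack of calls says nothing particular about the 10. At an unadjusted p under 0.05 in the edgeR test there was 1 of the 10, Fap, which was lower in every transferred heart than in any control heart. Fap was at an unadjusted p under 0.05 in 11 of 18 alternative settings, most of which kept all 7 hearts. It was not under 0.05 without control heart 2, 3 or 4 or without transferred heart 1 or 3. The share of 1 in 10 lies near the 12.4% of all tested genes at an unadjusted p under 0.05 (7.17% higher, 5.27% lower) and the 11.2% in which the groups did not overlap (5.99% higher, 5.22% lower). The median log2 fold change was -0.03 over the 10 genes and -0.002 over all tested genes, with 4 of the 10 above 0 and 6 below, where 50.3% of all tested genes were below 0. In 8 of the 10, all but Fn1 and Fap, the SD of log2 CPM within groups was larger than the size of the log2 fold change. For Thbs1, Spp1 and Postn the difference ran in opposite directions in animals with different forms of identifier, of which 1 form held 1 heart per group.

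The genes belong to the machinery by which heart tissue builds and reads its matrix. Fibronectin forms the provisional matrix that fibroblasts lay down after injury. Matricellular proteins such as periostin, tenascin C, thrombospondin 1 and osteopontin do not hold tissue together themselves but bind integrins and growth factors and are known for rising in wounded or overloaded myocardium. Elastic fibres are made of an elastin core on a scaffold of fibrillin microfibrils, which also store latent TGF-beta. Fibroblast activation protein is a membrane-bound serine protease found on activated fibroblasts.

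The labelled tissue carried its defining markers. Cardiomyocyte markers summed to between 131038 and 160421 counts-per-million (CPM) over the 7 hearts, with ranges that overlapped between the groups, and no marker of any list was at 0 in all hearts. CPM are scaled by TMM (trimmed mean of M values) and are relative to the analysed part of the genome. That part holds chromosomes 1 to 7 and the start of chromosome 8, with column totals from 16402179 to 25190560 counts. A count of 3 then corresponds to between 0.115 and 0.189 CPM, a limit from counting error only. Of 14 tested macrophage markers, 13 had an unadjusted p under 0.05 and all 14 had a positive log2 fold change, with Mrc1 and C1qb past the adjusted threshold (edgeR adjusted p = 0.0384 for each). Both calls were lost with limma-voom and with the form of identifier as covariate. They were also lost when any 1 control heart or transferred heart 2 was left out. In those fits 0 genes of the table were called higher. The summed macrophage markers ranged from 563 to 824 CPM in control hearts and from 971 to 1432 CPM in transferred hearts. Neutrophil markers summed to between 8.87 and 12.01 CPM in control hearts and to 12.2, 259 and 36.7 CPM in transferred hearts 1, 2 and 3, so transferred heart 2 stood apart. All 5 of the tested neutrophil markers had an unadjusted p under 0.05 and none passed the adjusted threshold. Of the 7 T cell markers in the table, 3 were tested and none passed. Of these 3, Cd247 was lower at an unadjusted p under 0.05 (log2 fold change -1.06, edgeR adjusted p = 0.278). The counts are of mouse genes, so these markers need not report the transferred human cells. Fibroblast markers (8 tested, none past the threshold) summed to between 4922 and 6589 CPM in control hearts and between 4526 and 7218 CPM in transferred hearts. Gsn, which encodes gelsolin, made up between 67.1% and 74.9% of that sum. Without Gsn the fibroblast sum was highest in control heart 4 (2116 CPM) and transferred heart 1 (1922 CPM) and lay between 1489 and 1690 CPM in the other hearts. The part that any of these cell types has in the results below was not tested.

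**Figure D1:**
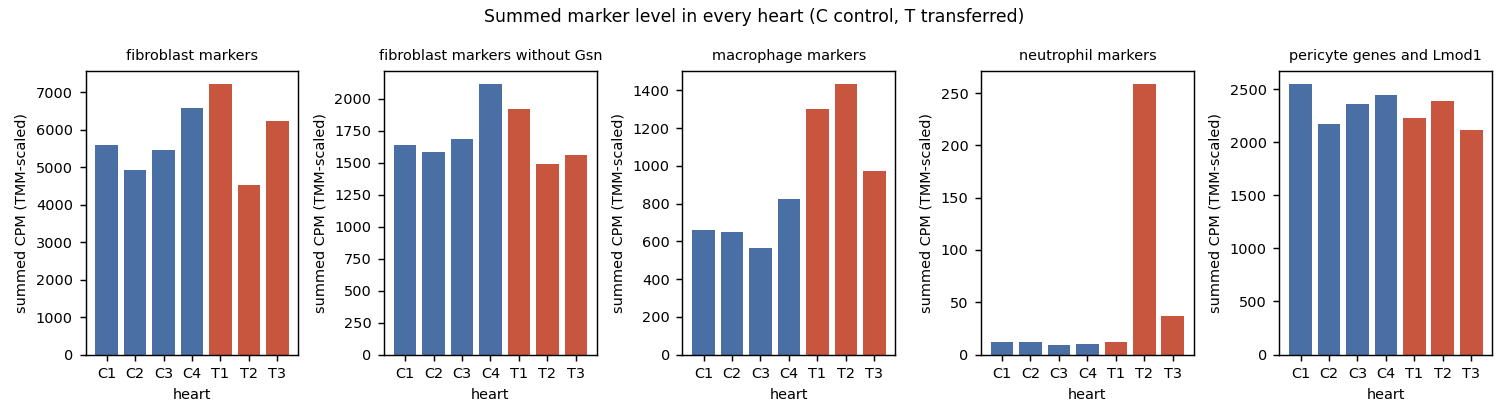
Summed level (TMM-scaled CPM, y axis) of marker genes in each heart (x axis, C control in blue, T transferred in red), with fibroblast markers shown with and without Gsn. Macrophage markers lie between 971 and 1432 CPM in transferred hearts, above the 563 to 824 CPM of the control hearts, while the groups overlap in fibroblast markers and in the last panel, a sum of the pericyte genes Rgs5, Abcc9, Kcnj8 and Rgs4 with the smooth muscle gene Lmod1, which is the lowest of the 5.

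Levels were compared between genes per kilobase of combined exons, in control hearts. Mgp was the most abundant by far, at 410.0 ± 51.0 CPM per kb (SD, n = 4), above 97.7% of tested genes. Postn had 31.4 ± 6.43 CPM per kb (SD, n = 4), with a range that overlapped that of Eln. Timp4 (20.4 CPM per kb), Eln (20.3 CPM per kb) and Fbn1 (19.5 CPM per kb) overlapped one another and could not be ordered. Fn1 (9.96 CPM per kb) overlapped Thbs1 (6.62 CPM per kb), and Fap stood apart below them at 3.06 ± 0.181 CPM per kb (SD, n = 4). Spp1 (0.563 CPM per kb) and Tnc (0.432 CPM per kb) overlapped at the low end, with Tnc above only 10.7% of tested genes. Tenascin C and osteopontin, which are known for low levels in the uninjured adult heart, were thus the least abundant of the 10 in the control hearts.

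Upstream sequence is shown for 4 genes, because Postn and Fbn1 had closely matched values over the hearts while Spp1 and Timp4 had widely scattered ones. RefSeq windows of GRCm38.p6 were found for 5 of the 10 genes. Each line below holds the 250 bases before the most upstream start, 5′ to 3′ on the gene's strand, with matches to the searched motifs in capitals.
Postn, chr3:54359017-54359266, plus strand: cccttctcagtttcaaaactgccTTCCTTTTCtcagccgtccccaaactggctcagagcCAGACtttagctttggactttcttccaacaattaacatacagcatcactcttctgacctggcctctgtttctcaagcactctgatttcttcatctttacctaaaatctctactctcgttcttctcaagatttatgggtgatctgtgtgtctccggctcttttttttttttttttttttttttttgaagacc
Fbn1, chr2:125506439-125506688, minus strand: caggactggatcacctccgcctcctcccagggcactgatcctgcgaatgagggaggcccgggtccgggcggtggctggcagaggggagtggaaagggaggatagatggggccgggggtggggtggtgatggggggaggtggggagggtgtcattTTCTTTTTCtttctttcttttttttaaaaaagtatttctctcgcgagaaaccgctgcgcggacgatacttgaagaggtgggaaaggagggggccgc
Spp1, chr5:104434861-104435110, plus strand: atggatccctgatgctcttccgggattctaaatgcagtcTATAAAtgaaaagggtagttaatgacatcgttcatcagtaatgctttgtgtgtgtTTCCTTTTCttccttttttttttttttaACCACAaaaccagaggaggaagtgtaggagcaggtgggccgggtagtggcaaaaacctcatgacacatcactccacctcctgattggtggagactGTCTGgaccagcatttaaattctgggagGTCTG
Timp4, chr6:115252206-115252455, minus strand: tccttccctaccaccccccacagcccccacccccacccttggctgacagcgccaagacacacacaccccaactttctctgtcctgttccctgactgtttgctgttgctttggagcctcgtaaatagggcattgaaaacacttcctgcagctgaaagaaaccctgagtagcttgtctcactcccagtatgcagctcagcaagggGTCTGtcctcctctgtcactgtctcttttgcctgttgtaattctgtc
The motifs were the TATA box (TATAAA, on the gene's strand only) and, on both strands, AP-1 (TGANTCA), CRE (TGACGTCA), TEAD (CATTCC), SMAD (CAGAC), RUNX (TGTGGT), STAT (TTCNNNGAA) and IRF (GAAANNGAA). The IRF letters were settled after the windows had been seen. A match is a description of the letters only, and none of these motifs contains another. Timp4 held 1 match, to the SMAD letters, which 42.2% of all 32851 windows hold. Postn held 1 match to SMAD and 1 to IRF, and Fbn1 held 1 match, to IRF. Spp1 held 5 matches, namely 1 to the TATA box (7.59% of windows), 2 to SMAD, 1 to RUNX (14% of windows) and 1 to IRF. The IRF letters were in 4 of the 5 windows found, Tnc included, and in 7.13% of all windows. With 1 more A at their end they were in 2 of the 5, Spp1 and Fbn1, and in 2.98% of all windows, so the count depended on the length searched. The Fbn1 window held 13 CpG dinucleotides, while the Postn, Spp1 and Timp4 windows held 3, 3 and 2, against a median of 6 over all windows. In Postn, Spp1 and Fbn1 the IRF letters were read on the opposite strand, as a run of T and C.

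Fn1 (chromosome 1, 71585473 to 71653280, minus strand, GRCm38) encodes fibronectin, the adhesive glycoprotein of the provisional matrix. Its level in control hearts 1 to 4 was 82.0, 63.6, 84.7 and 107 CPM, and in transferred hearts 1 to 3 it was 116, 108 and 92.0 CPM. Transferred hearts were high, but control heart 4 lay above transferred heart 3, so the groups overlapped. The mean was 84.4 ± 17.9 CPM (SD, n = 4) in control and 105 ± 12.2 CPM (SD, n = 3) in transferred hearts. The log2 fold change was 0.32 (SE 0.16, 95% interval -0.03 to 0.67, edgeR adjusted p = 0.453), so a rise up to that upper bound lies within the error. With 1 heart left out at a time it ranged from 0.21 without control heart 2 (edgeR adjusted p = 0.740) to 0.46 without control heart 4 (edgeR adjusted p = 0.282). Macrophages also make fibronectin, and the summed macrophage markers were higher in all 3 transferred hearts than in any control heart. The part of macrophages in the Fn1 values was not tested.

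**Figure D2:**
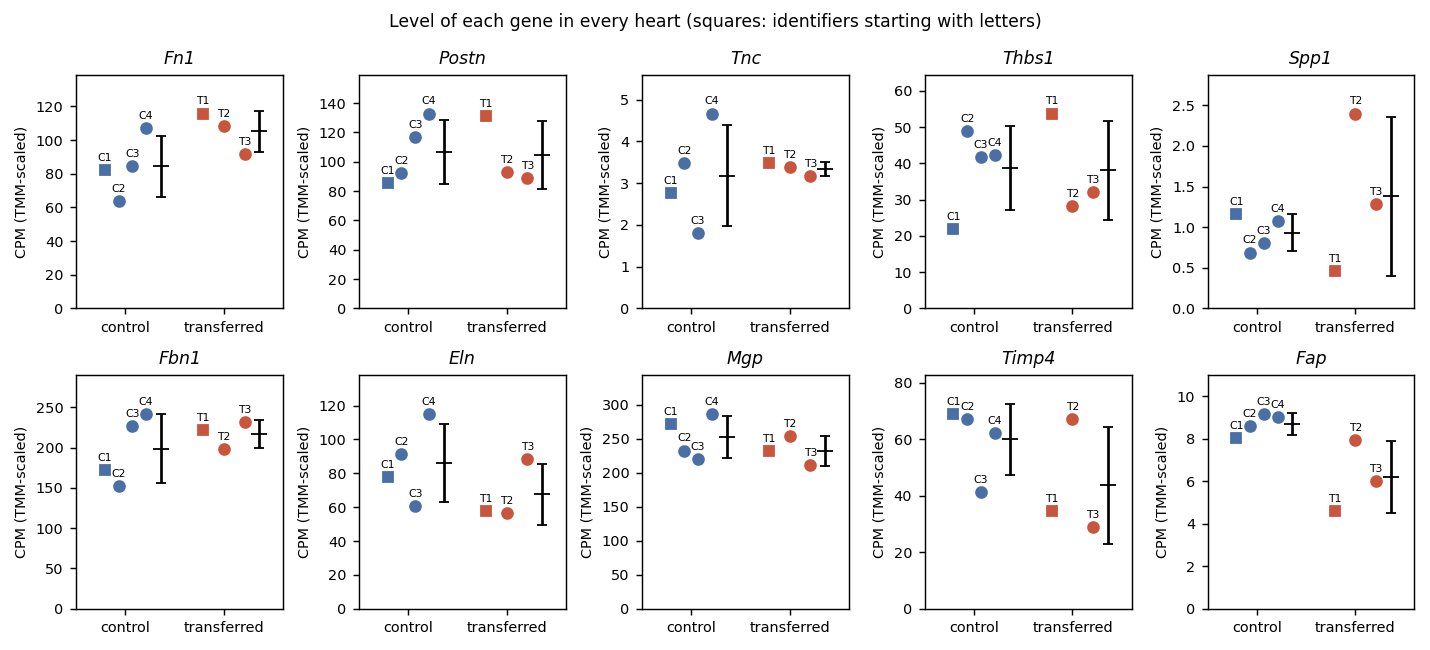
Level of each of the 10 genes in every heart (y axis, TMM-scaled CPM from 0; C control, T transferred; squares mark animals whose identifier starts with letters), with the mean and SD of each group in black. Fap is the gene whose groups do not overlap, and in Thbs1 and Spp1 the squares lie on the other side from the circles of their group.

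Postn (chromosome 3, 54359267 to 54391041, plus strand) encodes periostin, a matricellular protein secreted by activated fibroblasts. Its level was 85.4, 92.5, 117 and 133 CPM in the control hearts and 131, 93.1 and 89.0 CPM in the transferred hearts. Both groups covered nearly the same range, with control heart 4 and transferred heart 1 the highest, the pair that was also highest in fibroblast markers other than Gsn. For Postn the log2 fold change was -0.03 (SE 0.18, 95% interval -0.44 to 0.38, edgeR adjusted p = 0.964).

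Tnc (chromosome 4, 63959785 to 64047015, minus strand) encodes tenascin C, a hexameric glycoprotein of healing tissue. Control hearts gave 2.77, 3.49, 1.80 and 4.67 CPM, from 57, 81, 47 and 74 counts, and transferred hearts gave 3.49, 3.39 and 3.16 CPM, from 69, 72 and 64 counts. The transferred hearts lay within the range of the control hearts. Tnc had a log2 fold change of 0.09 (SE 0.30, 95% interval -0.59 to 0.76, edgeR adjusted p = 0.938). The exact 95% Poisson interval of control heart 3 reached from 1.33 to 2.40 CPM and that of control heart 4 from 3.67 to 5.86 CPM, so these 2 control hearts differed by more than counting error.

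Thbs1 (chromosome 2, 118111876 to 118127133, plus strand) encodes thrombospondin 1, which activates latent TGF-beta and restrains vessel growth. Its level was 22.0, 48.9, 41.8 and 42.3 CPM in the control hearts and 53.7, 28.3 and 32.1 CPM in the transferred hearts. The lowest and the highest of all 7 hearts were control heart 1 and transferred heart 1, which are the 2 animals whose identifiers start with letters. Among the 5 animals with identifiers of numbers alone, all 3 control hearts lay above both transferred hearts, with a log2 fold change of -0.55 (SE 0.12, edgeR adjusted p = 0.128). Over all 7 hearts the log2 fold change was -0.03 (SE 0.30, 95% interval -0.73 to 0.67, edgeR adjusted p = 0.982). The identifier form is not named as a batch in the labels. Platelets carry thrombospondin 1, and 3 platelet genes of the marker list were in the table. Pf4, also made by macrophages, was at 18.7, 19.4, 22.7 and 21.9 CPM in control hearts and 55.8, 79.3 and 25.1 CPM in transferred hearts. Ppbp was at 2.53, 4.17, 13.0 and 1.07 CPM in control hearts and 34.7, 47.5 and 2.08 CPM in transferred hearts. Gp9 was at 0.681, 1.59, 2.42 and 0.252 CPM in control hearts and 19.5, 19.5 and 0.593 CPM in transferred hearts. All 3 were highest in transferred hearts 1 and 2, of which heart 1 had the highest Thbs1 of all 7 and heart 2 the lowest of its group, and the part of platelets in the Thbs1 values was not tested.

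Spp1 (chromosome 5, 104435111 to 104441053, plus strand) encodes osteopontin, an integrin-binding phosphoprotein made by activated macrophages and fibroblasts. It had 24, 16, 21 and 17 counts in the control hearts, or 1.17, 0.689, 0.806 and 1.07 CPM. It had 9, 51 and 26 counts in the transferred hearts, or 0.456, 2.40 and 1.28 CPM. Transferred hearts were both the lowest and the highest of all 7, and the exact 95% Poisson intervals of transferred heart 1 (0.208 to 0.865 CPM) and transferred heart 2 (1.79 to 3.15 CPM) did not meet. Over all 7 hearts Spp1 had a log2 fold change of 0.58 (SE 0.49, 95% interval -0.52 to 1.68, edgeR adjusted p = 0.694). It was -0.09 without transferred heart 2, the heart with 259 CPM of neutrophil markers and the highest macrophage sum. Among the 5 animals with number identifiers it was 1.13 (SE 0.43, edgeR adjusted p = 0.313), and the groups did not overlap there. The macrophage sum was 1432 CPM in transferred heart 2, where Spp1 was highest, and 1301 CPM in transferred heart 1, where Spp1 was lowest.

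Fbn1 (chromosome 2, 125300594 to 125506485, minus strand) encodes fibrillin 1, the backbone of microfibrils. Its level was 173, 153, 227 and 242 CPM in the control hearts and 222, 198 and 232 CPM in the transferred hearts. The transferred hearts lay within the control range. Transferred over control, the log2 fold change was 0.13 (SE 0.15, 95% interval -0.22 to 0.47, edgeR adjusted p = 0.804). It ranged from 0.022 without control heart 2 to 0.24 without control heart 4 (edgeR adjusted p = 0.982 and 0.651).

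Eln (chromosome 5, 134702595 to 134747368, minus strand) encodes tropoelastin, the soluble unit of elastin. Its level was 77.7, 91.3, 60.8 and 115 CPM in the control hearts and 57.4, 56.6 and 88.4 CPM in the transferred hearts. Transferred hearts 1 and 2 lay below every control heart, while transferred heart 3 lay among them. The mean was 86.2 ± 22.9 CPM (SD, n = 4) against 67.5 ± 18.1 CPM (SD, n = 3). The groups thus differed by a log2 fold change of -0.35 (SE 0.24, 95% interval -0.89 to 0.19, edgeR adjusted p = 0.609). With 1 heart left out at a time it ranged from -0.59 without transferred heart 3 (edgeR adjusted p = 0.291) to -0.18 without control heart 4 (edgeR adjusted p = 0.840). Smooth muscle cells make much of the elastin of vessel walls, and Lmod1, which encodes leiomodin 1, was the one smooth muscle gene of the marker list in the table. Lmod1 was at 11.5, 11.96, 7.29 and 11.9 CPM in control hearts and 7.24, 6.73 and 10.9 CPM in transferred hearts, with a log2 fold change of -0.36 (SE 0.23, edgeR adjusted p = 0.576). As for Eln, transferred hearts 1 and 2 lay below every control heart and transferred heart 3 among them, and the part of smooth muscle in the Eln values was not tested. Eln was the only one of the 10 genes with a fractional count, in 1 heart.

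Mgp (chromosome 6, 136872435 to 136875823, minus strand) encodes matrix Gla protein, a vitamin K-dependent inhibitor of calcification. Its level was 272, 233, 220 and 287 CPM in the control hearts and 232, 254 and 211 CPM in the transferred hearts. It was the steadiest of the 10, with a highest value 1.36 times the lowest. The log2 fold change was -0.12 (SE 0.11, 95% interval -0.37 to 0.12, edgeR adjusted p = 0.706), the narrowest interval of the 10. It ranged from -0.19 without transferred heart 2 to -0.057 without control heart 4 (edgeR adjusted p = 0.704 and 0.927).

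Timp4 (chromosome 6, 115244444 to 115252205, minus strand) encodes the metalloproteinase inhibitor known for its high level in heart. Its level was 69.1, 67.1, 41.5 and 62.3 CPM in the control hearts and 34.7, 67.4 and 29.1 CPM in the transferred hearts. Transferred hearts 1 and 3 were lower than every control heart, and transferred heart 2 was as high as the highest controls. The log2 fold change was -0.45 (SE 0.31, 95% interval -1.17 to 0.26, edgeR adjusted p = 0.617). The estimate moved to -0.91 (SE 0.20, edgeR adjusted p = 0.214) without transferred heart 2, to -0.23 (edgeR adjusted p = 0.813) without transferred heart 3 and to -0.23 (edgeR adjusted p = 0.843) among the number animals. Control heart 3 was the low one of its group.

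Fap (chromosome 2, 62500936 to 62575509, minus strand) encodes fibroblast activation protein. Its level was 8.02, 8.61, 9.17 and 9.02 CPM in the control hearts, a tight group, and 4.61, 7.95 and 6.03 CPM in the transferred hearts. Every transferred heart was below every control heart, although transferred heart 2 lay only just under control heart 1. The mean was 8.71 ± 0.515 CPM (SD, n = 4) against 6.20 ± 1.68 CPM (SD, n = 3). The log2 fold change was -0.49 (SE 0.19, 95% interval -0.92 to -0.06, unadjusted p = 0.0305, edgeR adjusted p = 0.338), rank 693 by p-value among the tested genes. With 1 heart left out at a time it ranged from -0.71 without transferred heart 2 to -0.32 without transferred heart 1 (edgeR adjusted p = 0.457). Transferred heart 1 had the lowest Fap, at 91 counts. Its fibroblast marker sum was the highest with Gsn (7218 CPM) and the second highest, after control heart 4, without Gsn (1922 CPM). The related protease gene Dpp4, which lies close to Fap on chromosome 2 (62330073 to 62412315), had a log2 fold change of 0.42 (SE 0.32, edgeR adjusted p = 0.644).

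**Figure D3:**
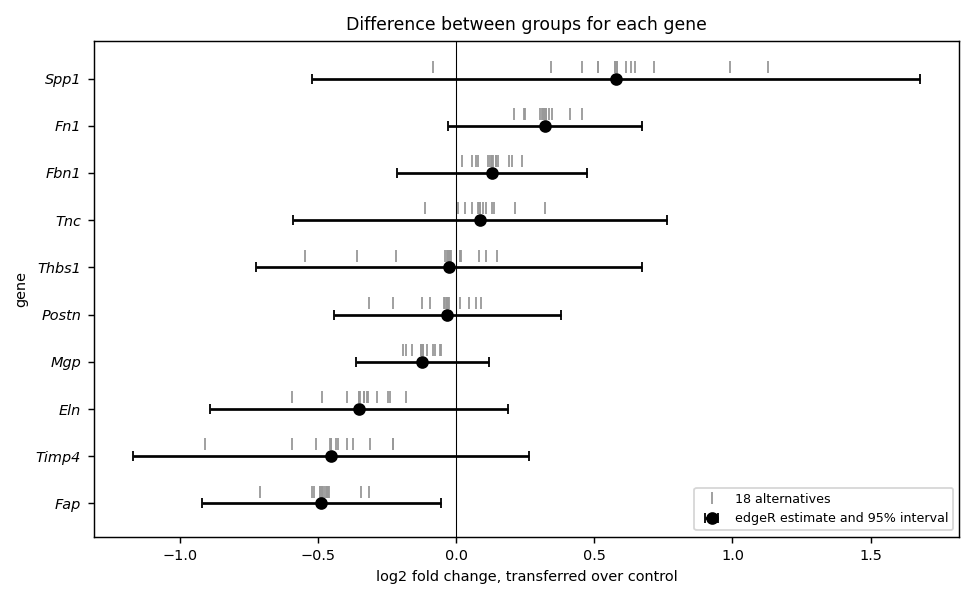
Estimated log2 fold change of each gene (x axis; transferred over control, black points with 95% intervals) and the values under 18 alternative settings (grey ticks). The interval of Fap, -0.92 to -0.06, is the one that leaves out 0, before adjustment over all tested genes.

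The animals with letter identifiers were 1 of each group, and those with number identifiers 3 control and 2 transferred. Between control heart 1 and transferred heart 1 the log2 ratio was 1.29 for Thbs1, 0.62 for Postn and -1.36 for Spp1. Among the others the log2 fold change was -0.55, -0.32 and 1.13 for the same genes. The difference between the forms, tested after the values were seen as an interaction over all 7667 genes, was 1.84 on the log2 scale for Thbs1 (edgeR adjusted p = 0.112). It was 0.94 for Postn (edgeR adjusted p = 0.448) and -2.47 for Spp1 (edgeR adjusted p = 0.524). The letter form rested on 1 heart per group, so the error in this test came from the spread among the number animals and the letter animals were assumed to vary like them. The pattern tested is the one that prompted the test, so its p-values are no independent support. In all, 0 genes of the table passed this test and 8.27% had an unadjusted p under 0.05. For Fn1, Fbn1, Eln, Fap, Mgp and Timp4 the direction was the same within both forms. That of Tnc was positive in both, at 0.33 between the letter animals but only 0.005 among the number animals. Fap had a log2 ratio of -0.80 between the letter animals and a log2 fold change of -0.35 (SE 0.20, edgeR adjusted p = 0.475) among the number animals.

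Heart-to-heart patterns were compared by the root mean square difference of log2 CPM, each gene centred on its own mean over the 7 hearts. Steady genes lie close to one another on this measure by construction. Of 45 pairs, the closest was Fn1 with Fbn1, at 0.19, followed by Postn with Fbn1 at 0.21 and Fn1 with Postn at 0.25. Control heart 4 and transferred heart 1 were among the 4 highest hearts for each of these 3 genes, all of them products of fibroblasts. Timp4 lay closest to Fap, at 0.35. The farthest pair was Thbs1 with Spp1, at 1.0, whose order over transferred hearts was opposite.

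**Figure D4:**
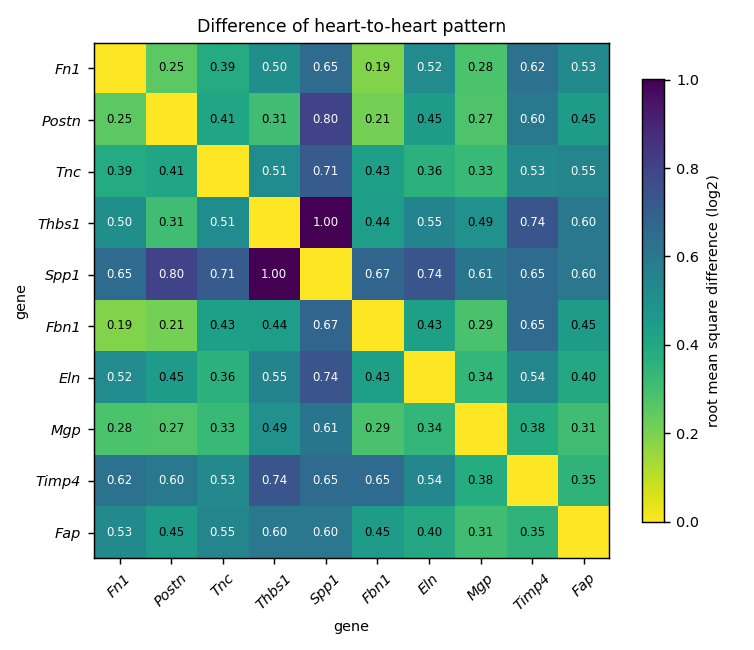
Root mean square difference in log2 CPM over the 7 hearts (colour and printed value) between each pair of the 10 genes, on both axes. Fn1, Postn and Fbn1 form the closest group at 0.19 to 0.25, and Thbs1 with Spp1 is the most distant pair at 1.0.

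Among all tested genes of at least 1 CPM, the closest to Fn1 were Igsf10 (0.12), Axl (0.13) and Akr1b8 (0.13). The closest to Postn were Col15a1 (0.08), a collagen of basement membrane zones, Prpf38a (0.10) and Itih5 (0.11). Fbn1 lay nearest to Olfml2a (0.05), Astn2 (0.07) and Rnu7 (0.08), and Eln to Adamtsl1 (0.10), Atp10d (0.12) and the smooth muscle gene Lmod1 (0.14). Among the genes near Thbs1 were Gm13268 (0.18) and the immediate early gene Fosb (0.21). The nearest to Fap were 4933440N22Rik (0.12), Gm5048 (0.14) and Pex11g (0.14), and to Mgp they were Coq8b (0.05), Tmem35b (0.06) and Wwtr1 (0.07). Among the genes near Timp4 were Cracdl (0.21) and Tmem116 (0.23). Tnc lay nearest to Sox6os (0.14), Mall (0.19) and Gys1 (0.21), and Spp1 to Ssu2 (0.28), Zfp982 (0.31) and Mcf2l (0.31). With 7003 candidate genes and 7 hearts, such closeness is a description only.

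The spread within groups was wide for several of the 10. The within-group SD of log2 CPM was 0.74 for Spp1, 0.50 for Thbs1, 0.48 for Timp4, 0.44 for Tnc and 0.38 for Eln. It was 0.30 for Postn, 0.26 for Fn1 and Fbn1, 0.25 for Fap and 0.16 for Mgp, while the median of all tested genes was 0.18. Among the 5073 tested genes with a mean of at least 10 CPM, Thbs1 was above 97.9%, Timp4 above 97.7%, Eln above 95.4%, Postn above 91.6%, Fn1 above 88.3%, Fbn1 above 87.4% and Mgp above 64.4%.

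Other genes of the same pathways came from 6 lists, with the 10 genes left out. Of 69 tested genes on these lists, 0 passed the adjusted threshold of the edgeR test. With limma-voom 0 passed as well, as over the whole table. DESeq2 called 5 of the 69 (Itga4, Plaur and Fgl2 higher, Itga8 and Fmod lower). Over the whole table it called 250 of 7667 genes, 190 higher and 60 lower. In the edgeR test 9 of the 69 were higher and 5 lower at an unadjusted p under 0.05, and the median log2 fold change was 0.05. These 14 of 69 genes are a larger share than the 12.4% of all tested genes at that p (7.17% higher, 5.27% lower). The lists were chosen with earlier results of these data known, and the difference in share was not tested. The groups did not overlap in 6 genes that were higher and 2 that were lower, where 11.2% of all tested genes did not overlap (5.99% higher, 5.22% lower).

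Of 7 tested matricellular genes, 3 had a positive and 4 a negative log2 fold change. Fgl2, which encodes a fibrinogen-like protein of macrophages and other immune cells, had a log2 fold change of 0.66 (SE 0.22, edgeR adjusted p = 0.278). It was at 214 CPM in both transferred hearts 2 and 3 but at 112 CPM in transferred heart 1, within the control range. Thbs3, a relative of Thbs1, had a log2 fold change of 0.48 (SE 0.16, edgeR adjusted p = 0.283). Ccn1, an integrin ligand and early response gene, was at 133 ± 44.2 CPM (SD, n = 4) in control and 94.8 ± 1.88 CPM (SD, n = 3) in transferred hearts, with a log2 fold change of -0.49 (SE 0.22, edgeR adjusted p = 0.411).

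Of 12 tested elastic fibre genes, 8 had a positive and 4 a negative log2 fold change, with a median of 0.05. Adamtsl2, whose product binds fibrillin and latent TGF-beta binding protein, had a log2 fold change of -0.72 (SE 0.31, edgeR adjusted p = 0.387), with overlapping groups. Ltbp4, needed for elastic fibre assembly, had -0.23 (SE 0.14, edgeR adjusted p = 0.545), and the microfibril gene Mfap2 had 0.28 (SE 0.23, edgeR adjusted p = 0.681).

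Of 14 tested proteases and inhibitors, 11 had a positive and 3 a negative log2 fold change, with a median of 0.11. Adam15 had a log2 fold change of 0.33 (SE 0.12, edgeR adjusted p = 0.292), with every transferred heart above every control heart. Mmp17 had -0.58 (SE 0.23, edgeR adjusted p = 0.334). Mmp9, the neutrophil gelatinase, had 1.59 (SE 0.65, edgeR adjusted p = 0.369), carried by 9.03 CPM in transferred heart 2 against 0.99 to 1.83 CPM in the other 6 hearts.

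The receptor list held the genes nearest to the threshold. Of 13 tested receptors for these proteins, 3 were higher and 1 lower at an unadjusted p under 0.05. Itga8, the integrin chain of mesenchymal cells that binds fibronectin, tenascin C and osteopontin, was at 28.6, 30.5, 21.2 and 27.1 CPM in control and 17.8, 15.5 and 19.7 CPM in transferred hearts. All transferred hearts were below all control hearts, with a log2 fold change of -0.60 (SE 0.15, edgeR adjusted p = 0.127). Itga4, the leukocyte integrin chain that binds fibronectin and osteopontin, was at 4.13, 3.70, 4.15 and 5.05 CPM in control and 6.03, 11.4 and 6.72 CPM in transferred hearts. The groups did not overlap, with a log2 fold change of 0.93 (SE 0.24, edgeR adjusted p = 0.156). Plaur, the urokinase receptor, had 0.74 (SE 0.21, edgeR adjusted p = 0.179). Itga4 was highest in the heart with the highest macrophage and neutrophil sums.

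Of 17 tested fibroblast identity and activation genes, 7 had a positive and 10 a negative log2 fold change, with a median of -0.03. Fmod, which encodes the collagen-binding proteoglycan fibromodulin, had the most negative value of any list, -1.76 (SE 0.57, edgeR adjusted p = 0.267). It was at 11.3, 3.23, 5.95 and 8.52 CPM in control hearts and 4.00, 1.55 and 0.840 CPM in transferred hearts, with an overlap between transferred heart 1 and control heart 2. Tgfbr1, a TGF-beta receptor, had 0.18 (SE 0.09, edgeR adjusted p = 0.492), and Ptn, which encodes pleiotrophin, had -0.41 (SE 0.24, edgeR adjusted p = 0.550). Of the 7 tested genes tied to mineralisation and vitamin K, 3 had a positive and 4 a negative log2 fold change, with a median of -0.09. Gas6, a vitamin K-dependent ligand of TAM receptors, had a log2 fold change of 0.27 (SE 0.09, edgeR adjusted p = 0.259). Bmp2, a bone morphogenetic protein, had 0.54 (SE 0.19, edgeR adjusted p = 0.295), and in both genes every transferred heart was above every control heart. Vkorc1, the vitamin K reductase, had 0.21 (SE 0.12, edgeR adjusted p = 0.532).

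**Figure D5:**
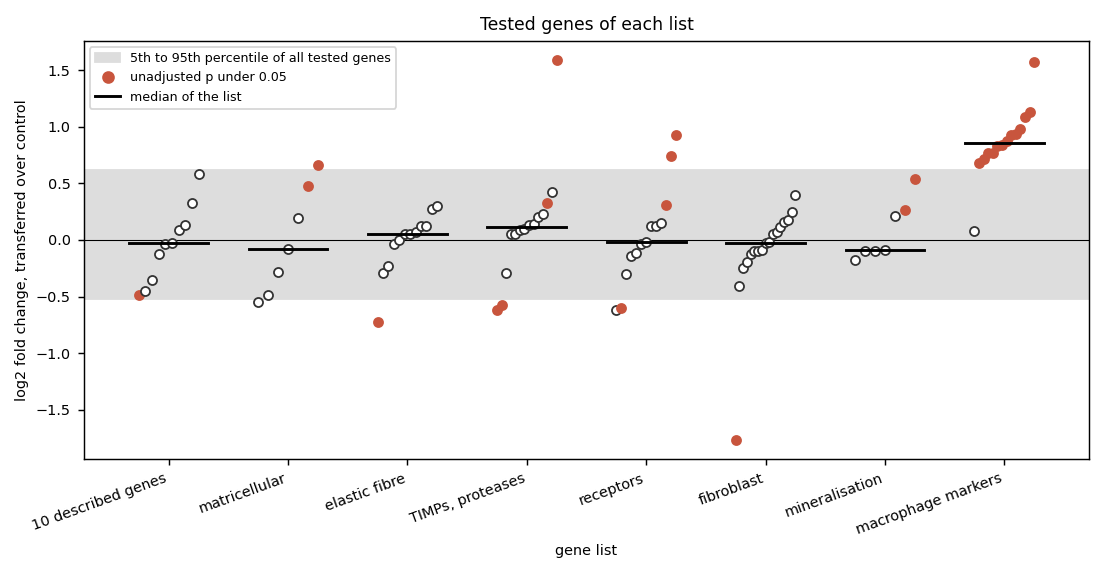
Log2 fold change (y axis, transferred over control) of each tested gene in the lists on the x axis; filled points have an unadjusted p under 0.05, black bars are medians and the grey band spans the 5th to 95th percentile of all tested genes. The medians of the matrix lists lie between -0.09 and 0.11, while that of the macrophage markers is 0.86.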

How the data were processed

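The authors deposited a table of estimated counts per gene over combined exons, not normalized, per the file headers. The submitters' processing notes name STAR 2.7.2b, featureCounts 1.6.4 and GRCm38.p6. Of all values, 4.63% had a fractional part, and counts were rounded before testing. An unfinished last row was left out. The table covers chromosomes 1 to 7 and the start of chromosome 8, and other genes are not analysed here. The column of combined exon length was used as deposited. Genes were filtered with filterByExpr, scaled with TMM and tested with edgeR 4.0.16 (quasi-likelihood, robust) in R 4.3.3. DESeq2 1.42.0 and voom of limma 3.58.1 were alternatives. Log2 CPM used a prior count of 2. Standard errors came from the F statistic. The procedure was tested on simulated data. Other alternatives changed the scaling, the filter, the robust option, the rounding or the covariate (identifier prefix), or left out hearts. The interaction of identifier prefix and transfer was added after the data were seen. The letters of the interferon regulatory factor motif were shortened after a longer form had been searched, and the counts of both are given.

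Groups came from the treatment label, and replicates were numbered in accession order. Each sample is labelled as its own heart, and p-values measure the spread between these hearts. The members and lists were chosen with earlier results of these data known. Named were the 10 genes, the 3 genes of smallest p-value per list and the 3 nearest genes of each, some of which are not reported here. Markers and Dpp4 were named after their values were seen.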

Additional observations from a re-analysis of the deposited data

Results flagged for a closer look

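The difference of Thbs1 between transferred and control hearts ran in opposite directions in the animals with letter and with number identifiers, by 1.84 on the log2 scale (edgeR adjusted p = 0.112). That of Spp1 did the same in the other direction, by -2.47 (edgeR adjusted p = 0.524). Neither passed the adjusted threshold. The letter form held 1 heart per group, so the error came from the spread among the number animals, and the test was chosen after the pattern had been seen. The log2 CPM of Ptn reached 3.01 in control heart 4, while the remaining 3 controls lay between 2.26 and 2.36. Its gap to the nearest control was 0.869 of the whole range of the 4 controls, above Dixon's 95% critical ratio. It was the only 1 of 28 genes checked that passed this ratio, where chance gives 1.4, and in log2 CPM other genes had wider gaps, Thbs1 in control heart 1 among them.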

How the results depend on the processing

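None of the 10 genes passed the adjusted threshold under any of 18 alternatives (lowest adjusted p 0.128, from edgeR, for Thbs1 in the hearts with number identifiers only). Fn1, Fbn1, Eln, Fap, Mgp and Timp4 kept their direction in all 18. When 1 heart was left out at a time, the log2 fold change ranged from -0.23 to 0.088 for Postn, from -0.36 to 0.15 for Thbs1, from -0.086 to 0.99 for Spp1 and from -0.11 to 0.32 for Tnc. Those 4 genes changed sign, in 11 of 180 values over the 10 genes. The lowest and highest came without transferred heart 1 and without control heart 4 for Postn, without transferred hearts 1 and 2 for Thbs1, without transferred hearts 2 and 1 for Spp1, and without control hearts 3 and 4 for Tnc. The number of the 10 genes at an unadjusted p under 0.05, 1 in all hearts, ranged from 0 (without control heart 2) to 2 (without transferred heart 2 or 3) and was 2 in the hearts with number identifiers only (Thbs1 and Spp1). Fap was not under 0.05 with total count scaling (unadjusted p = 0.0578, where Fn1 was), in the hearts with number identifiers only, or without control heart 2, 3 or 4 or transferred heart 1 or 3. The genes under 0.05 were then none without control heart 2, Eln without control heart 3, Fn1 without control heart 4, Spp1 without transferred heart 1, and Fn1 and Eln without transferred heart 3. Over the whole table the 18 genes became 35 with total count scaling (26 higher and 9 lower, against 10 and 8 with TMM), 81 with all genes of at least 1 count, 250 with DESeq2 and 0 with limma-voom (907 at an unadjusted p under 0.05). They became 0 with the identifier prefix as covariate (973 at an unadjusted p under 0.05), 0 in the hearts with number identifiers only (1054), and from 0 to 140 with 1 heart left out. The 140 came without transferred heart 3 (128 higher and 12 lower). Of the 69 listed pathway genes tested, DESeq2 called 5, namely Itga4, Plaur and Fgl2 higher and Itga8 and Fmod lower. Of all 7667 tested genes it called 250 (190 higher and 60 lower). The fits with 1 heart left out called from 0 to 1 listed gene. That gene was Fgl2 without transferred heart 1, a fit that called 27 of 7805 genes. For each of these changes the cause was not tested. Counts were lowest for Spp1 (9 to 51) and Tnc (47 to 81), and for both some hearts of 1 group differed by more than counting error. No paired analysis was possible because the hearts' titles share only 1 number between the groups and nothing ties animals to each other.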
